A study of Mus musculus with 287 samples.

Results

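The genes described here are 10 subunits of the ionotropic glutamate receptors, the channels that open when glutamate binds: the AMPA receptor subunits Gria1, Gria2, Gria3 and Gria4, the NMDA receptor subunits Grin1, Grin2b, Grin2d and Grin3a, and the kainate receptor subunits Grik2 and Grik5. They were taken by symbol from the exon and intron count tables, which list 55359 gene IDs, 52083 of them with a symbol. All 10 were found in both tables. The list was drawn up with earlier results of these data known, and 8 other ionotropic subunits were left outside it.

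The cells came from cerebral organoids grown from mouse embryonic stem cells, self-organizing cultures that form cortex-like tissue. Every cell carried the genotype MADM-11GT/TG;Emx1-CreER+/-. In MADM (mosaic analysis with double markers), a Cre-driven exchange between chromosomes in a dividing cell can make its daughters red and green, and Emx1 drives expression in dorsal forebrain progenitors, so the clones are limited to descendants of cells in which the inducible Cre acted. Clones were induced with 60 nM 4-OHT on day 13 and collected on day 20 as single cells drawn into a glass pipette, and libraries were made with SMART-Seq v3. Each cell is labelled with its clone, the clone's size and plate, its colour, and SN or N as the type of its clone. The labels do not say what SN and N stand for or which organoid or culture a cell came from. The p-values below therefore measure the spread between clones, which may be partly technical. All groups share the genotype, dose and days, and differ only in these labels.

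Of the labelled cells, 86.97% had an exon count in at least 1000 genes and were kept. These were 49, 42 and 40 cells of type SN and 41, 35 and 40 cells of type N from plates 1, 2 and 3. Their exon totals ran from 6171 to 13040432 with a median of 1517431, and the median was lower in SN (1365828) than in N cells (1887116.5). Conditions were compared over sums of the cells of a clone, in 62 clones with at least 2 kept cells: 42 of type SN (15, 14 and 13 on plates 1, 2 and 3) and 20 of type N (5, 7 and 8). Labelled clone sizes were 2 to 6 cells in SN and 4 to 19 cells in N, so clone type and clone size cannot be told apart outside sizes 4 to 6. Stmn2, a gene of young neurons, was counted in 96.8% of cells. Of the genes of cortical excitatory neurons, Neurod6 was counted in 87.45% and Tbr1 in 69.23%. Over 9 cortical identity genes, which include these 2, detection ran from 34.0% (Emx1) to 87.45%, with a median of 69.64%. Fabp7 of radial glia was counted in 95.55%, so detection of Stmn2 does not set these cells apart as neurons. The 37 labelled cells left out had a median exon total of 7130, and Gria2 was counted in 6 of them and Grin2b in 8.

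An ionotropic glutamate receptor is built from 4 subunits. AMPA receptors carry fast excitatory transmission. NMDA receptors need the subunit encoded by Grin1 together with others such as that of Grin2b and pass calcium. Kainate receptors combine subunits such as those of Grik2 with partner subunits such as that of Grik5, which does not form a channel alone. In the developing cortex, Grin2b is known as the NMDA subunit of young neurons, ahead of Grin2a. The subunit encoded by Gria2 decides whether an AMPA receptor passes calcium, because an enzyme encoded by Adarb1 edits a glutamine codon of its transcript, at the Q/R site, to one read as arginine, and Grik2 carries the same kind of site.

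The stretch around that site is shown because it marks what a gene count can and cannot tell about these subunits. The 63 bases below were read from GENCODE M21 transcripts (build GRCm38), 5′ to 3′, with the glutamine codon at the site in capitals.

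Gria1: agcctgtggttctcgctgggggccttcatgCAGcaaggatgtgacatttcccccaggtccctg

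Gria2: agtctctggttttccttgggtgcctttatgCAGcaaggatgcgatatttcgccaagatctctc

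Gria3: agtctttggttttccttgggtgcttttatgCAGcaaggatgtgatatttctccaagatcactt

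Gria4: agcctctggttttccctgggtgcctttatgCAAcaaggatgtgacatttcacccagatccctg

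Grik2: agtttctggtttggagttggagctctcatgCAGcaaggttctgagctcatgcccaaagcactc

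Grik5: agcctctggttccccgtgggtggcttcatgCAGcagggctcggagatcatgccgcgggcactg

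The codon is number 607 of 883 in Gria2, in exon 11 on the minus strand of chr3:80706911-80706913, and number 621 of 908 in Grik2, in exon 13 on the minus strand of chr10:49244329-49244331. In Gria4 the same amino acid is written CAA, at codon 608 of 902 in exon 11, chr9:4464137-4464139 on the minus strand. Gria2 and Gria3 shared 57 of the 63 bases, the closest pair of the 6 sequences, and Gria1 and Gria4 shared 55. Gria1 and Grik2 shared 38, the fewest. Editing changes a base in the RNA, which a count of reads per gene does not record, so the counts below say nothing of the edited share. How reads that match several of these genes were counted is not given in the sources used here.

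Gria2 and Grin2b were found most widely. Gria2 had at least 1 exon count in 91.1% of the kept cells (95% Wilson interval 86.9 to 94) and Grin2b in 85.8% (80.9 to 89.6). Grik5 followed with 66.4%, Grik2 with 60.3% and Gria1 with 59.5%. Gria3 and Grin1 were each counted in 37.7% of cells, Grin2d in 28.7%, Gria4 in 26.7% and Grin3a in 21.1%. Of 12 genes of unrelated organs, the median was counted in 0.405% of cells and the highest, Myh7 of heart muscle, in 17.4%, so the interval of Grin3a (16.4 to 26.6) reached down to the background of that gene. Pecam1, a gene of endothelium, was counted in 42.9% of cells. Gria3, Grin1, Grin2d, Gria4 and Grin3a all lay below it, so their detection with all counts has that limit. The Wilson intervals treat cells as independent, although cells share clones and plates, so they leave out the spread between clones. It is not stated whether molecules or reads were counted.

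**Figure D1:**
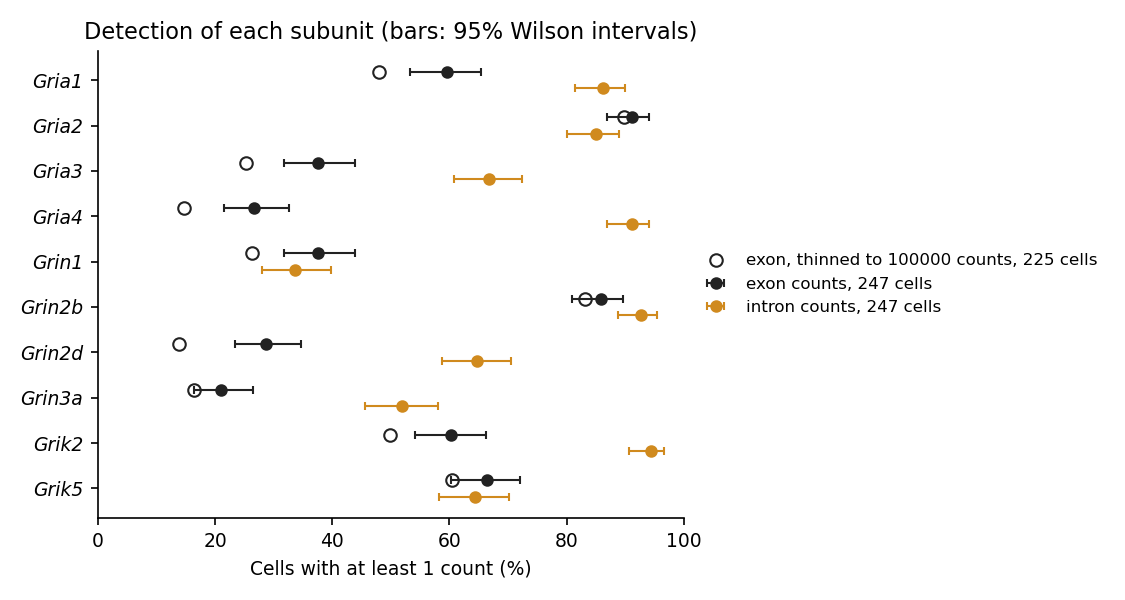
Share of cells with at least 1 count of each subunit (percent, x axis), from exon counts in all kept cells (black), exon counts in the cells that could be thinned to 100000 counts (open) and intron counts in all kept cells (orange); bars are 95% Wilson intervals. Gria2 and Grin2b lie highest and shift least with thinning, while Gria4 is at 26.7% by exon and 91.1% by intron counts.

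The order at the top was the same at equal depth. After each cell was thinned to 100000 exon counts, which left out 10 SN and 12 N cells as too shallow, Gria2 was counted in 89.8% of the cells that remained and Grin2b in 83.1%, followed by Grik5 (60.4%), Grik2 (49.8%) and Gria1 (48.0%). Gria3 was counted in 25.3%, Grin1 in 26.2%, Grin3a in 16.4%, Gria4 in 14.7% and Grin2d in 13.8% of thinned cells. Grin3a, the sparsest with all counts, thus lay above Gria4 and Grin2d at equal depth. Myh7 was counted in 12.4% and Pecam1 in 11.1% of thinned cells, below every member but close to Grin2d and Gria4. In the 91 cells with at least 3000000 exon counts, Gria2 was counted in 98.9%, Grin2b in 96.7%, Grik5 in 90.1%, Gria1 in 87.9% and Grik2 in 86.8%. In the 67 cells with 100000 to 1000000 counts the same shares were 77.6%, 71.6%, 43.3%, 43.3% and 37.3%. Grin1 was counted in 56.0% of the deepest cells and in 26.9% of these shallower ones.

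Levels differed more widely than detection. As CPM, exon counts scaled to a total of 1000000 in each cell, divided by the kilobases of exon of each gene, the mean over cells was 24.5 for Gria2, 10.0 for Gria1, 9.63 for Grin2b and 9.58 for Grik5. Grik2 followed with 5.06 per kilobase, and Grin2d (2.18), Grin1 (1.76), Gria3 (1.51), Gria4 (1.05) and Grin3a (0.992) lay lower. Gria1, Grin2b and Grik5 were thus alike per kilobase of exon, while their detection differed. The order below Gria2 depended on the length used. Scaled by the longest coding transcript, Grik5 (13.2) lay above Gria1 (10.9) and Grin2b (9.94). Grin1 (4.0) and Gria3 (2.86) then lay above Grin2d (2.68).

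Not scaled by length, the median cell had 262.2 CPM of Gria2 with an interquartile range of 56.0 to 485, and 112.3 CPM of Grin2b (14.4 to 324). The median was 18.6 CPM for Grik5, 3.25 CPM for Grik2 and 2.14 CPM for Gria1. It was 0 for Gria3, Gria4, Grin1, Grin2d and Grin3a, whose means rest on a minority of cells. Grin2d shows this most: its mean was 14.5 CPM with an SD of 91.6 and a highest cell of 1234 CPM, and 31 of the 71 cells that held it had only 1 to 3 counts.

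Other ionotropic subunits were counted in fewer than 50% of cells. Grik4, a partner of the same kind as Grik5, was counted in 47.8% of cells, but in 61 of those 118 cells with only 1 to 3 counts, and in 16.4% after thinning. Grik3, a kainate subunit that forms channels, was counted in 38.5% of cells and in 29.8% after thinning. Both were higher than for Gria3, Gria4, Grin1, Grin2d and Grin3a. Its mean of 2.78 CPM per kilobase of exon was also higher than theirs. Scaled by the longest coding transcript, it was 2.78, below Grin1 (4.0) and Gria3 (2.86). Grin2a, the NMDA subunit of mature neurons, was counted in 32.4%, Grik1 in 20.6% and the delta subunit Grid1 in 24.7%. Grin2c and Grin3b lay near the unrelated-organ genes with 4.45% and 1.62%. The mean of Grin2a was 0.432 CPM per kilobase, against 9.63 for Grin2b.

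Within a cell, 1 gene made up most of the AMPA and of the NMDA subunit transcripts on average, and the kainate pair was more even. Shares were taken per kilobase of exon in cells with at least 20 counts of the family. Gria2 made up a mean of 70.9% of AMPA subunit transcripts in the 83% of cells that could be used (median 76.3%) and more than 50% in 73.7% of these. Gria1 made up 20.3% (median 5.99%), Gria3 5.19% and Gria4 3.68%. Gria2 exceeded 90% in 81 cells, and in 2 it was at 0. Gria1 exceeded 50% in 35 cells, or 17.1%, so a minority of cells were led by Gria1.

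Among NMDA subunits, Grin2b made up a mean of 75.2% in 190 cells (median 90.3%) and exceeded 90% in 98 of them. Grin1, the subunit that every NMDA receptor contains, made up 11.0% with a median of 0. Grin3a, which lowers calcium flow through the receptor, made up 8.0%, and Grin2d, a slow-closing subunit, 5.86%. For the kainate pair, Grik5 made up a mean of 66.0% and Grik2 34.0% in the 63.56% of cells that could be used, with Grik5 above 90% in 58 cells and Grik2 above 90% in 26. In the 42 cells that still had 20 counts after thinning, the shares were 51.0% and 49.0%. Not scaled by length, the mean over all kept cells was higher for Grik2 (67.0 CPM) than for Grik5 (49.5 CPM). The median was higher for Grik5, as given above. Which of the pair leads by mean thus depends on the scaling by length.

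**Figure D2:**
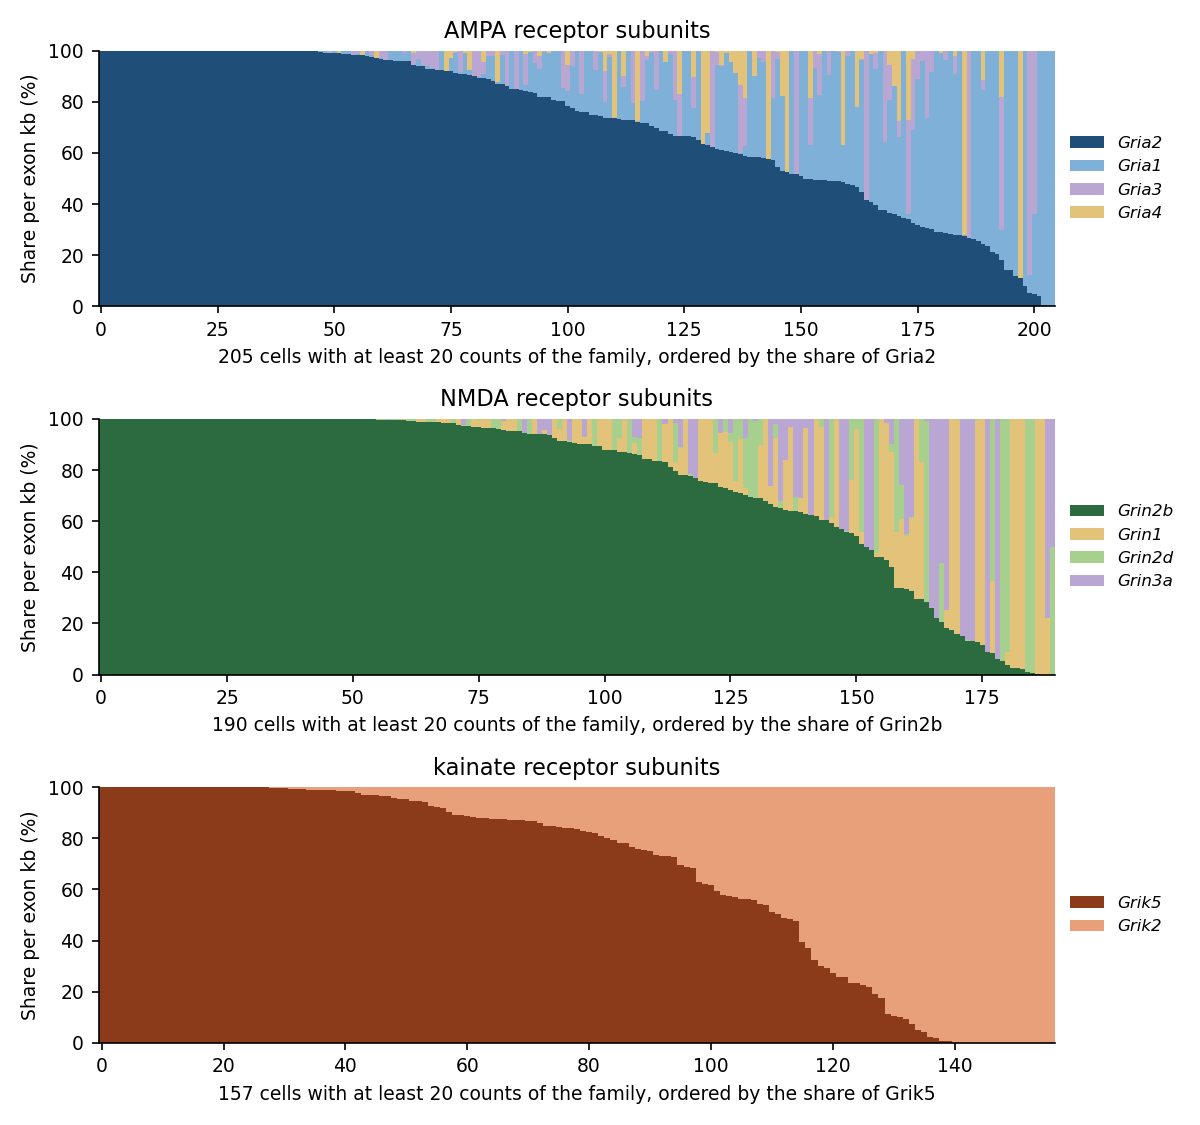
Make-up of each receptor family in single cells: each column is 1 cell and its height is divided by the share of each subunit per exon kilobase (percent, y axis), with cells ordered by the leading subunit (x axis). Gria2 exceeds 50% in 73.7% of its cells, Grin2b exceeds 90% in 98 of 190 cells, and cells led by Grik5 grade into cells led by Grik2.

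The 2 genes of a functional NMDA receptor were often not counted together. Grin2b without Grin1 was seen in 49.8% of cells (Wilson interval 43.6 to 56.0), both in 36.0%, and Grin1 without Grin2b in 4 cells. Grin1 was counted in 42.0% of the cells with Grin2b and in 4 of the 35 without it. Since Grin1 has fewer counts where it is found (median 34, against 298 for Grin2b), a cell without a Grin1 count is not shown to lack its transcript.

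Gria2 was present in nearly all cells with any AMPA subunit. It was counted alone in 61 cells, with another AMPA subunit in 66.4%, and absent in 7 cells that had another one, or 2.83%. All 4 AMPA genes were counted in 35 cells, or 14.2%, and none in 15. Adarb1, the editing enzyme named above, was counted in 100 of the cells with Gria2, or 44.4%. Grik5 was counted without any of Grik1, Grik2 and Grik3, its known channel-forming partners, in 32 cells, or 13.0%. A cell held a median of 5 of the 10 subunits (range 0 to 10), and 4 after thinning.

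Clones repeated this pattern. Gria2 was counted in every kept cell of 44 of 62 clones and in some cells of the other 18, and Grin2b in every cell of 40 and some cells of 22. No clone was without either. Grik2 and Grik5 were each in every cell of 17 clones and in no cell of 2. At the other end, Grin3a was in no cell of 27 clones, Grin2d of 22 and Gria4 of 20.

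Introns gave a different order. Grik2 had an intron count in 94.3% of cells, Grin2b in 92.7%, Gria4 in 91.1%, Gria1 in 86.2% and Gria2 in 85%. Gria4 was counted by introns alone in 64.37% of cells. Its summed intron counts were 14.7 times its exon counts, and those of Grik2 were 11.1 times, against 3.37 for Gria1 and 0.699 for Gria2. The span of Gria4 in GENCODE M21 is 378 kb and that of Grik2 is 694 kb, against 121.4 kb for Gria2 and 28.0 kb for Grin1. Per kilobase of intron these numbers are not comparable with spliced transcript, and an intron count can come from unspliced RNA or from another transcript that overlaps the gene.

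The background in introns was higher as well. Among the unrelated-organ genes the median was counted in 5.06% of cells by introns, and Tg, the thyroglobulin gene, in 49.0%. Grin1 with 33.6% lay below Tg, and the interval of Grin3a, 45.6 to 58.0 around 51.8%, included it. Intron detection of these 2 subunits is therefore not read as expression here. Cx3cr1, a gene of microglia, was counted by introns in 74.9% of cells and by exons in 8.10%. Gria3 (66.8%), Grin2d (64.8%) and Grik5 (64.4%) lay below it by introns, so their intron detection has the same limit.

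The first comparison asked whether SN and N clones differ in these subunits. No member passed an adjusted p of 0.05 in edgeR's quasi-likelihood test of 11914 genes with plate as a term, where 0.0% of all genes passed. At an unadjusted p under 0.05, 2.06% of genes and 1 member passed, and DESeq2 called 1 gene (0.00839%), no member. The median log2 difference, SN minus N, was -0.23 over the 10 members and -0.11 over all genes. In these sums, fewer cells of a type and less RNA per cell cannot be told apart.

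The member with the smallest p was Gria2. It ran from 43.8 CPM through a median of 320 to 856 in SN clones, and from 136.9 through 404 to 1392 in N clones. The ranges overlapped over most of their length, with the highest clones on the N side. The log2 difference was -0.55 ± 0.25 (SE; edgeR unadjusted p = 0.031, adjusted p = 1.0). Within plates it was -0.41 ± 0.48, -0.56 ± 0.43 and -0.66 ± 0.42, the same direction on each. With the size factors of DESeq2 in place of TMM it was -0.4, and in clones of size 4 to 6 it was -0.91 ± 0.4 (edgeR unadjusted p = 0.03). With each cell weighted equally it was -0.2 ± 0.3.

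Markers of some other cells also lay on the N side. Ttr, the only 1 of 6 choroid plexus genes with enough counts to be tested, had a log2 difference of -4.44 ± 1.42 (edgeR adjusted p = 1.0), and the summed level of all 6 had a median of 0.0318 CPM among SN clones (0 to 497), against 19.3 CPM among N clones (0 to 1128). For 6 mesenchyme genes the medians were 22.3 and 37.9 CPM, with Col1a1 at -2.37 ± 0.94. For 8 genes of GABAergic neurons the medians were 15.7 and 29.9 CPM, but the means were 77.2 and 60.1 CPM. The oligodendrocyte lineage lay on the SN side, with medians of 75.6 and 67.5 CPM over 6 genes and Olig1 at 1.13 ± 0.67. Fabp7 of radial glia also lay on the SN side (0.96 ± 0.36), with summed radial glia genes at a median of 3813 CPM for SN, against 3210 CPM for N. None of these passed the threshold, and their part in the value of Gria2 was not tested.

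Grin2b, the other leading subunit, was close to 0. It ran from 20.7 through 192.4 to 1371 CPM over SN clones. Over N clones it ran from 78.7 through 231.1 to 633 CPM, so they lay inside the SN range. Its difference was 0.03 ± 0.29. Of the remaining AMPA subunits, Gria1 stood at -0.41 ± 0.55 and Gria3 at -0.32 ± 0.74. Gria4 stood at 1.34 ± 0.92, with a median of 2.36 CPM in SN against 2.97 CPM in N clones, but a highest clone of 88.7 CPM among SN, against 18.0 CPM among N.

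Grin2d had the largest difference in size, -1.96 ± 1.11 (edgeR unadjusted p = 0.081), on very low levels: its median was 0.148 CPM in SN, against 0.488 CPM for N, and 16 SN and 6 N clones were at 0. It was not of 1 direction across plates 1, 2 and 3, at -4.96 ± 1.58, -0.79 ± 1.49 and 0.83 ± 1.53. Among clones with 4 to 6 cells it was 2.53 ± 1.61, on the SN side. The interaction of plate and clone type passed for 0.0% of 11914 genes in edgeR (2.25% at an unadjusted p under 0.05), and Grin2d had p = 0.035, adjusted p = 1.0. On simulated counts this interaction test recovered 0%, 2.99% and 3.33% of genes changed by log2 1, 2 and 3 on plate 3 only. That no gene passed it therefore does not show that the plates agree. Grin1 (0.31 ± 0.78), Grin3a (0.56 ± 1.1), Grik2 (-0.24 ± 0.48) and Grik5 (-0.23 ± 0.4) differed between SN and N by less than their standard errors.

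**Figure D3:**
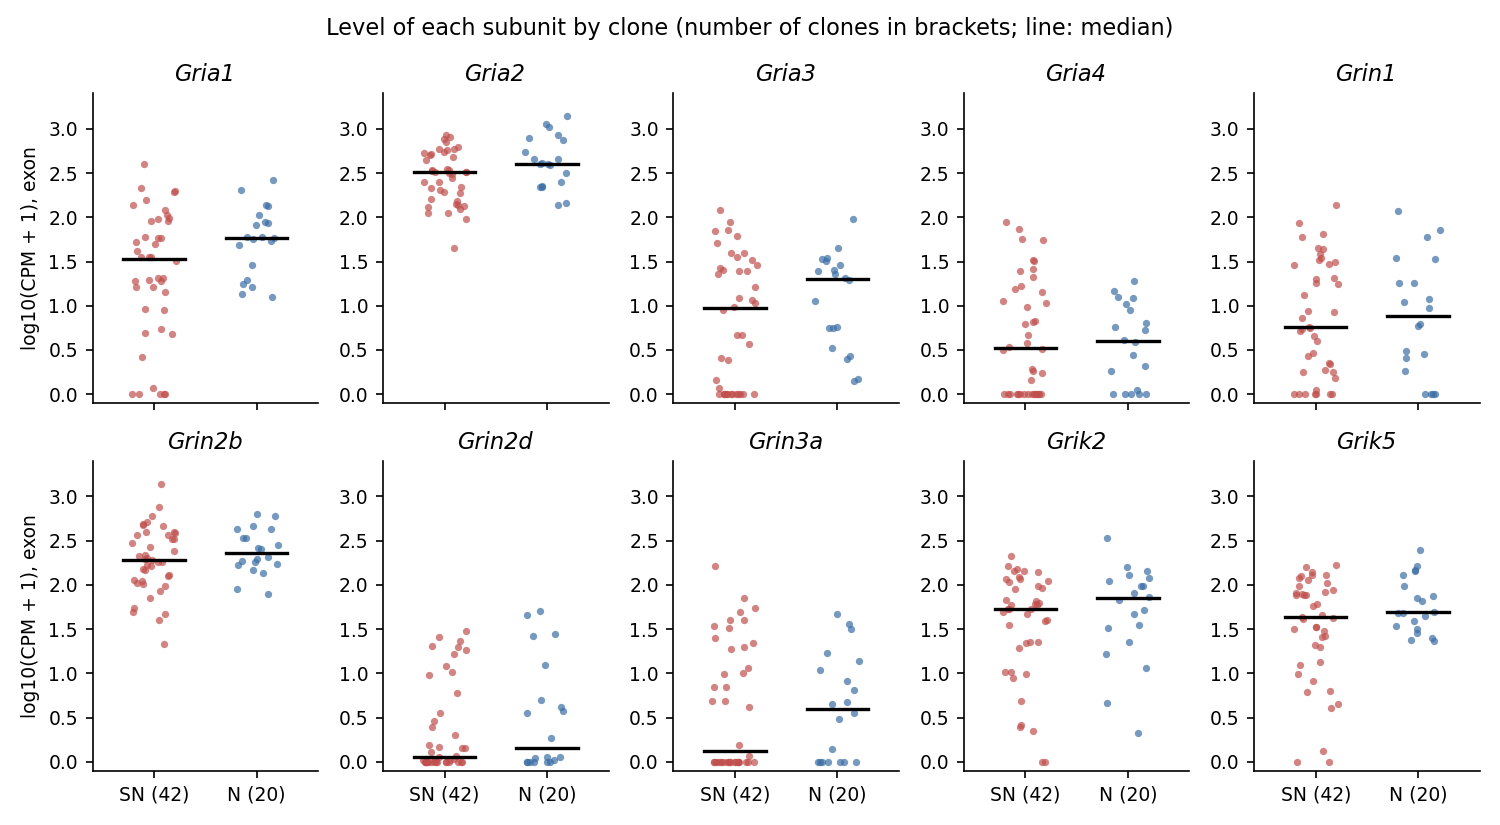
Level of each subunit in each clone, as log10(CPM + 1) of summed exon counts (y axis), for 42 SN and 20 N clones; each point is a clone and the line is the median. Gria2 and Grin2b are above 0 in every clone and their SN and N points overlap, while Grin2d, Grin3a and Gria4 have many clones at 0.

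Composition was also close between the types. Averaged within clones first, Gria2 made up 69.9% of AMPA transcripts in SN (SD 17.3, n = 41 clones with a cell above the count minimum) and 74.2% in N (SD 12.7, n = 20). Grin2b made up 72.7% (SD 20.8) and 77.4% (SD 20.9) of NMDA transcripts, and Grik5 65.9% (SD 28.8) and 62.7% (SD 21.6) of the kainate pair. These differences are smaller than the spread between clones of a type and were not tested further. Of the summed level per kilobase of all 10 genes, the AMPA genes took 53.6% for SN against 52.6% for N, the NMDA genes 24.4% against 24.6%, and the kainate genes 22.0% against 22.8%. Clone means of the number of subunits per cell were 5.21 (SD 1.52) in SN and 5.41 (SD 1.52) in N.

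Intron counts gave the same comparison a different readout. Of 11050 genes, edgeR passed 0.0%, with 699 (6.33%) and 3 members at an unadjusted p under 0.05, while DESeq2 called 100 genes (0.905%) and no member. Gria1 was lowest in SN relative to N: its intron level ran from 0 through 113.2 to 2165 CPM in SN clones and from 6.9 through 294 to 3447 CPM in N clones, with 1 SN clone at 0. The log2 difference was -1.31 ± 0.51 (edgeR unadjusted p = 0.012, adjusted p = 0.6). Gria2 stood at -0.70 ± 0.33 (unadjusted p = 0.037, adjusted p = 0.76), on the same side as by exons. Grin3a stood at 1.71 ± 0.8 (unadjusted p = 0.035), although its medians were alike, 20.8 CPM for SN against 21.7 CPM for N, and 1 SN clone reached 1526 CPM. The interval of its intron detection included the value of Tg, as given above, so this difference is not read as one in expression. The other 7 members lay between -0.80 (Grik5) and 0.87 (Gria4). Of these, Grin1, Gria3, Grin2d and Grik5 had intron detection below that of Cx3cr1, as given above. The size factors of DESeq2 moved the median of all genes from -0.10 to 0.22 in introns and from -0.11 to 0.07 in exons, and with them Grin2b and Grin2d turned from below to above 0 in introns.

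**Figure D4:**
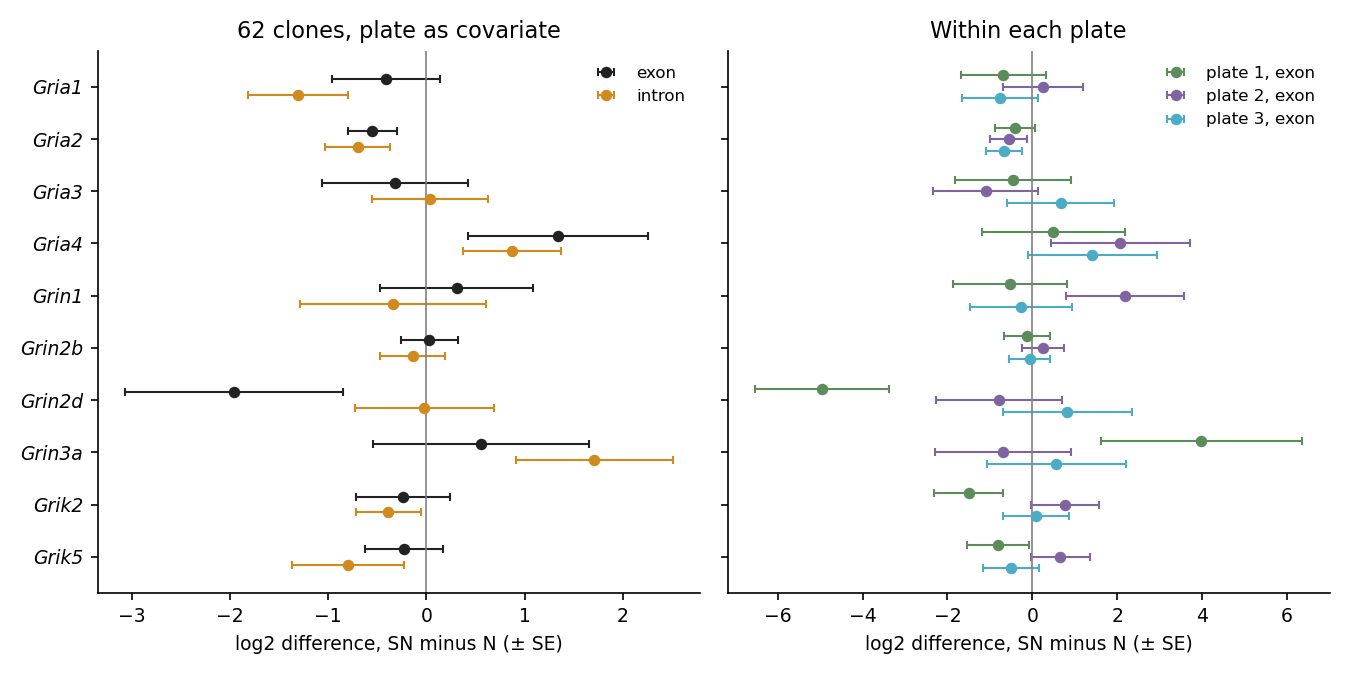
Log2 difference, SN minus N, of each subunit with its standard error (x axis), from exon and intron counts over 62 clones (left) and from exon counts within each plate (right). Gria2 lies below 0 in every fit shown, and Grin2d runs from -4.96 on plate 1 to 0.83 on plate 3.

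The relation to neuronal maturity was read with a score per cell, the mean log2(CPM + 1) of 16 neuronal genes minus that of 16 radial glia genes, with no member in either list. It ran from -4.36 to 6.63 over cells (median 2.72) and its correlation with log2 depth was -0.022. Clone means were 2.49 (SD 1.73) in SN and 2.7 (SD 1.38) in N. In the 82 cells with the lowest scores Gria2 averaged 298 CPM, in the middle 82 cells 367 CPM and in the 83 highest 478 CPM, while it was counted in 91.5%, 91.5% and 90.4% of them. Detection was thus flat while the level was higher in the more neuronal cells. Grin2b averaged 185.3, 226.4 and 305 CPM, and Grik2 37.0, 61.2 and 102.4 CPM. Grin2d was counted in 37.8%, 31.7% and 16.9% of these cells, but its mean was highest in the middle cells (8.16, 28.7 and 6.83 CPM), as was its share of cells after thinning (13.3%, 20.0% and 8.0%). Fabp7, a score gene, averaged 4196, 1739 and 854 CPM, which shows the range the score spans.

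Composition along this score was read in cells with at least 20 counts of a family. Gria2 made up a mean of 66.6% of AMPA transcripts in the lowest cells, 70.8% in the middle and 75% in the highest, with SDs of 27.8 to 29.7. Gria1 went from 23.8% through 21.2% to 16.1%. Grin2b made up 73%, 70.8% and 82% of NMDA transcripts. These are descriptions over cells, which share clones.

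Between clones, none of the 10 members passed when the score was fitted over 62 clones with plate as a term. Of 11914 genes, 0.344% passed in edgeR (41 genes), including 5 neuronal and 6 radial glia genes that make the score, and 949 genes (7.97%) and 2 members had an unadjusted p under 0.05. Those members were Grin2b, at a log2 change of 0.20 ± 0.08 per unit of score (edgeR adjusted p = 0.42), and Gria2, at 0.15 ± 0.07 (adjusted p = 0.59). Gria1 had a slope of -0.25 ± 0.17. The median slope was 0.09 over members and -0.01 over all genes.

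Within clones, where differences between clones and plates drop out, slopes were taken over the cells of 43 clones. Of 10534 genes, 0.038% passed in limma (4 genes), and none of the 9 members tested did. At an unadjusted p under 0.05 there were 571 genes (5.42%) and 1 member, Grin2d, with a slope of -0.30 ± 0.09 log2(CPM + 1) per unit of score (adjusted p = 0.49), rising in 11 of 43 clones. A clone without a count of a gene has a slope of 0 and is not among those rising. Grin2d was in no cell of 22 of the 62 clones, so clones that did not rise need not have fallen. Gria2 had a slope of 0.25 ± 0.17, rising in 27 of 43 clones, and Grin2b 0.14 ± 0.18, rising in 23. Grin3a was counted in too few of these cells to be tested. Slopes on this scale understate the change of low genes.

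A score within the neuronal path, late minus early neuron genes (16 and 15 genes), gave larger slopes within clones. Here 22.5% of all genes passed in limma, 2361 of them rising (22.4%) and 5 falling, with a median slope of 0.29, and 5 of 9 members rose. Gria1 had a slope of 0.82 ± 0.22 (adjusted p = 0.0098), rising in 24 of 43 clones, Grik2 of 0.78 ± 0.2 (adjusted p = 0.0086), Grik5 of 0.67 ± 0.21 (adjusted p = 0.024), Gria2 of 0.63 ± 0.22 (adjusted p = 0.033) and Gria3 of 0.46 ± 0.15 (adjusted p = 0.026). The median over the 9 members was 0.46. Grin2d did not follow, with -0.06 ± 0.09.

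This score moved with depth. Its correlation with log2 depth over cells was 0.31, and the median exon total was 631689 in the 82 cells with the lowest late scores, 1781361 in the middle and 2696805 in the highest. When cells were thinned to 100000 exon counts, in an alternative added after the data had been seen, 0.353% of 7659 genes passed in limma and none of the 7 members tested did. The slope was then 0.58 ± 0.24 for Gria1 (adjusted p = 0.18), 0.54 ± 0.23 for Gria2 (adjusted p = 0.18), 0.39 ± 0.24 for Grik2 and 0.16 ± 0.26 for Grik5, beside a median of 0.23 over all genes. Between clones this score passed 3 genes (0.0252%) and no member in edgeR.

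**Figure D5:**
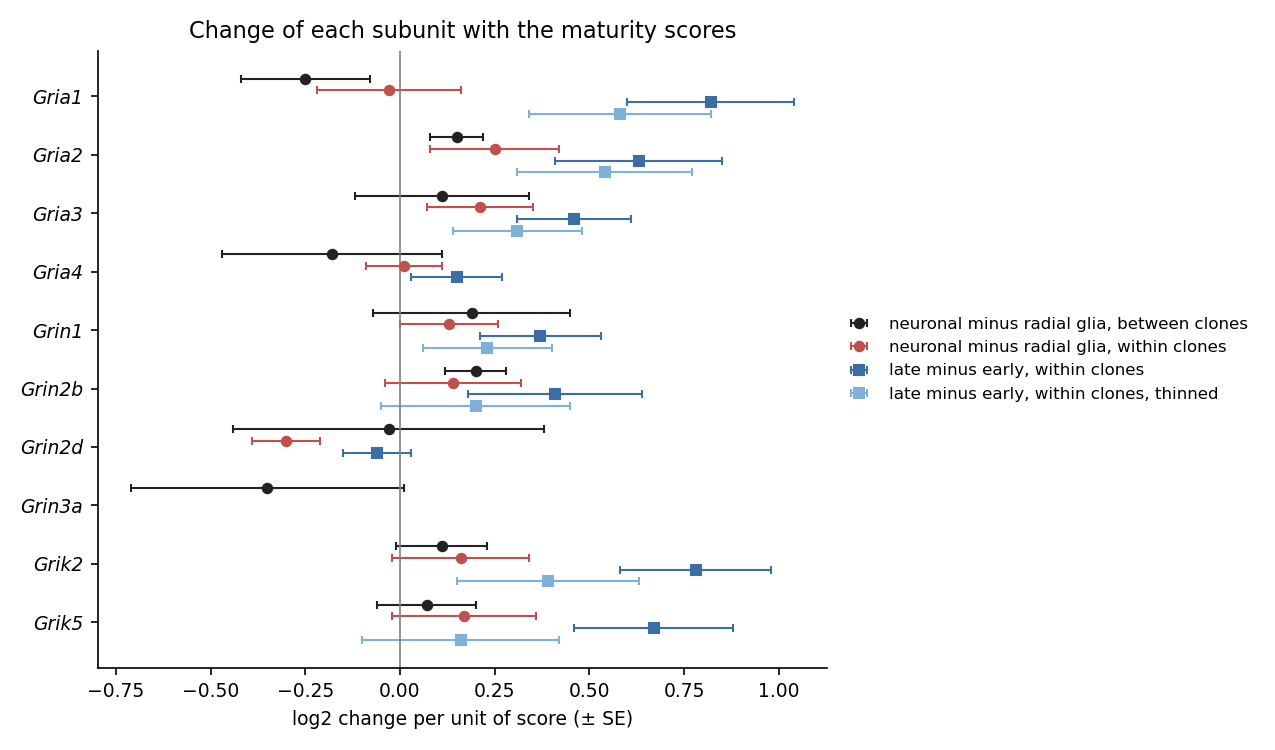
Log2 change of each subunit per unit of score with its standard error (x axis), between clones (black) and within clones (red) for the neuronal minus radial glia score, and within clones for the late minus early neuron score with all counts (dark blue) and thinned cells (light blue). The dark blue values are highest for Gria1, Grik2, Grik5 and Gria2, and lie nearer 0 after thinning.

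In cells with late scores, Gria1 took a larger part of the AMPA transcripts. Its mean share was 15.0% in the 61 usable cells of lowest late score, 18.9% in the middle and 25.8% in the 76 highest, while Gria2 made up 79%, 72.5% and 62.9%. This is opposite in direction to the neuronal minus radial glia score, along which the share of Gria2 was higher. Depth differs along the late score, as given above, and its part in these shares was not tested.

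Red and green cells of a clone, the daughters of the marked division, were compared in 45 clones with both colours (190 cells), with the clone as the pair. In edgeR 0.0% of 7437 genes passed, and 1.64% of genes but no member had an unadjusted p under 0.05; 7 members had enough counts to be tested. Gria2 averaged 424 CPM in green cells (SD 339) and 363 CPM in red cells (SD 337) and was higher in green in 25 clones and in red in 20, a log2 difference of 0.21 ± 0.42. Grin2b was higher in green in 22 clones and in red in 23 (-0.02 ± 0.57). The remaining 5 lay between -0.62 ± 1.08 (Gria1) and 0.36 ± 0.84 (Grik2).

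The genes that assemble and anchor the receptors were present at day 20 alongside the subunits, over a wide range. Of 14 auxiliary subunit genes, the median was counted in 38.26% of cells, from Cacng3 with 5.26% to Cacng4, a transmembrane AMPA receptor regulatory protein, with 75.3%. Cnih2, a cornichon that slows AMPA receptor closing, was counted in 70.9%. Of 21 scaffold and trafficking genes, the median was 48.18%, from Dlgap2 with 6.88% to Shank1 with 79.8%, and Dlg4, which encodes PSD-95, was counted in 77.7%. Of the 8 metabotropic receptor genes, which signal through G proteins, the median was 18.02%, from Grm6 with 2.43% to Grm5 with 47.4%.

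None of these lists had a gene that passed between SN and N clones by exons, where 13, 20 and 4 of their genes were tested. Their median log2 differences were -0.06 for auxiliary subunits, -0.07 for scaffolds and -0.27 for metabotropic receptors, beside -0.11 over all genes. The smallest p of the auxiliary list was that of Cacng5 (2.83 ± 1.18, unadjusted p = 0.019, edgeR adjusted p = 1.0). Of the 3 editing enzyme genes none passed, with a median of 0.09. Along the neuronal score between clones, Camk2b, a kinase that acts on AMPA receptors, had the smallest p of the scaffold list, with 0.37 ± 0.11 per unit (edgeR adjusted p = 0.13), but it is also a gene of the late score.

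Over the cells with at least 100000 exon counts, the genes whose log2(CPM + 1) was most like that of Gria2 were Slc8a1, a sodium-calcium exchanger (Pearson r 0.51), Bcl11a, a transcription factor of cortical neurons (0.50), Xpr1 (0.49), Ncam1, a neural cell adhesion molecule (0.48), and Ttc28 (0.48). For Grin2b they were Cdk5r1, the activator of the neuronal kinase Cdk5 (0.49), Runx1t1 (0.47), Bcl11b, a transcription factor of deep-layer neurons (0.46), Apc2 (0.45) and Huwe1 (0.44). The median over the 4922 genes compared was 0.22 for Gria2 and 0.20 for Grin2b. All genes of a cell share its library and depth, and the part of these in the correlations was not tested. Gria2 and Grin2b had an r of 0.38 with each other, at rank 120 and 40 of these lists. The 45 pairs of members ran from -0.0037 to 0.37 with a median of 0.21 over all kept cells. In thinned cells they ran from -0.022 to 0.37 with a median of 0.15, and Gria2 and Grin2b had 0.32.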

How the data were processed

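Single cells from day 20 mouse cerebral organoids were profiled with SMART-Seq v3, and the authors deposited raw exon counts and raw intron counts per gene for 287 libraries. Per the submitters' processing notes, STAR 2.7.9a, R 4.4.0 and GRCm39 were used; the counting tool, the annotation and any use of molecular identifiers are not given in the sources used here. No column was left unmapped, and 3 libraries without a clone label entered no comparison. Of exon counts, 83.4% fell on IDs with a symbol, and 1 unnamed ID held 16.5%.

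Cells with at least 1000 genes were kept and summed by clone; clone 45, on plates 2 and 3, was assigned to plate 3, where most of its cells were. No 2 kept cells had a correlation above 0.831. Clone sums were tested with edgeR 4.0.16 (R 4.3.3, TMM, filterByExpr, quasi-likelihood, plate as a term), within-clone slopes of log2(CPM + 1) with limma 3.58.1 on genes counted in at least 20% of cells, and DESeq2 1.42.0 was an alternative. Standard errors of edgeR are the log2 change divided by the square root of F. P-values were adjusted by Benjamini-Hochberg over all genes tested, with a threshold of 0.05. Gene lengths and sequences came from GENCODE M21 (GRCm38), another build than the counts, so they were joined by gene and no coordinate was carried over. Python 3.11.15 with pandas 2.3.3 and scipy 1.17.1 gave the descriptions.

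The members and lists were chosen with earlier results of these data known. The text names all members and, per other list and comparison, up to 3 passing genes of smallest p or else the gene of smallest p, limited here to lists it describes. Some genes of these lists are not reported here. On simulated counts of 11403 genes, the SN to N test recovered 4.69%, 39.7% and 61% of genes changed by log2 1, 2 and 3, with 2 false calls, and DESeq2 10.9%, 65.1% and 72.9% with 42 false calls. The slope between clones recovered 70.8% at log2 1 per unit of score. For the fit within clones, slopes with a normal spread were drawn in place of counts. It recovered 41.8% at 0.5 and 94% at 1. These draws lack the zero counts of sparse genes, so they do not give the recovery for such genes.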

Additional observations from a re-analysis of the deposited data

Results flagged for a closer look

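Of the 3 libraries that the labels put in no clone, and that no comparison used, 2 held glutamate receptor transcripts above the limit that a count of 0 allows (3 counts). The first, with 1689914 exon counts, held Gria2 at 214.2 CPM, Grin2b at 61.54 CPM and Grik2 at 571.6 CPM. The second, with 5976683 exon counts and 13298 genes, held Gria2 at 972.8 CPM, Grin2b at 707.4 CPM, Gria1 at 99.89 CPM, Grik2 at 75.13 CPM, Grik5 at 71.11 CPM, Gria3 at 28.11 CPM, Grin2d at 9.704 CPM and Grin1 at 1.673 CPM, the last from 10 counts. The remaining library held 2257 exon counts and no exon count of any of the 10 genes, which at that depth allows up to 1329 CPM.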

How the results depend on the processing

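Of the alternative values of 56 results on single members, 92.4% counted as unchanged, 16 changed direction and 5 others passed the threshold. For tests, unchanged meant the same direction and side of the threshold. For family shares, which have neither, it meant a move smaller than the SD over clones. Gria1 within clones with the late score did both. Genes passed between SN and N clones by exons were 0, against 1 with DESeq2, 6861 of 39336 without a filter on low counts, 2 with cells of at least 2000 genes and 1 with each cell weighted equally; by introns 0, against 100 with DESeq2 and 2371 without a filter. For the score between clones 41 became 3 with the late score, 308 with DESeq2 and 4004 without a filter. Within clones 4 became 18 with a pseudocount of 10, 0 without a filter (1966 at an unadjusted p under 0.05 in limma), 2366 with the late score and 27 with the late score in thinned cells. Between colours 0 became 1 without a filter. The cause of these shifts was not tested.

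By exons, Grin2b (0.03) turned to -0.03 without a filter, -0.2 with equal cells and -0.24 in clones of size 4 to 6, where Grin2d (-1.96) turned to 2.53. By introns, Gria3 turned to -0.03 without a filter, where Gria1 passed (-1.5, edgeR adjusted p = 0.049); Grin2b turned to 0.27 with DESeq2 and with its size factors, and Grin2d to 0.6 and 0.36. Between clones the late score turned Gria4 to 0.25, Grin2d to 0.04 and Grin3a to 0.14, and the thinned score turned Grin2d to 0.02. Within clones Gria1 (-0.03) turned to 0.09 with a pseudocount of 10, 0.82 with the late score and 0.58 with that score thinned. Shares of each family moved by less than their spread over clones when cells were thinned, only cells with at least 2000 genes were kept, clone sums were used or the longest transcript set the length. No paired analysis was possible because, for SN against N, the number in a title counts cells within a clone and pairs no SN clone with an N clone. Red and green cells were paired by clone.

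Grin2d, Gria4 and Grin3a were counted in no cell of 22, 20 and 27 of 62 clones. From the 67 cells with 100000 to 1000000 exon counts to the 91 with at least 3000000, the share of cells with a count was 13.4% and 45.1% for Grin2d, 8.96% and 51.6% for Gria4, and 14.9% and 35.2% for Grin3a.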
